A study of Mus musculus with 300 samples.

Results

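In livers of F2 mice bred from 2 inbred strains, MRL/MpJ (here MRL) and SM/J (here SM), 118 of 34406 measured transcripts were moderately higher in females than in males. They were chosen by their F2 values, as the transcripts whose mean over the F2 females exceeded the mean over the F2 males by at least 0.5 and less than 1 on the log2 scale, which is at least about 1.41-fold and less than 2-fold. The rule also left out 3 transcripts, of which 0 lay within these limits. The F2 sex difference chose the transcripts, so its values are given below as a description without a test. The 118 differences had a median of 0.65, quartiles of 0.56 and 0.78 and a range of 0.50 to 0.98 log2. The transcripts nearest the limits stood at 0.5003 and 0.5011 just inside the lower one, and at 0.4997 and 0.495 just outside it. At the upper limit they stood at 0.9489 and 0.9759 inside, and at 1.0238 and 1.036 outside.

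The adult mouse liver expresses many genes at different levels in females and males. A large part of this dimorphism is known to follow the pattern of growth hormone secretion by the pituitary, pulsed in males and more continuous in females, which reaches the hepatocyte through the growth hormone receptor and the transcription factor STAT5b. Cytochrome P450 enzymes, sulfotransferases and other enzymes of steroid and drug metabolism are well-known classes of sex-biased liver genes. The files give Ensembl transcript identifiers without gene names, and the gene table used paired 0 of the 118 with a gene. No role is therefore given to any transcript, the liver label was not checked against marker genes, and each transcript is described by its values.

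Each animal gave 1 liver RNA sample and 1 array, of the Affymetrix Mouse Gene 1.0 ST type, which carries probes along the transcript. The 300 animals were 135 F2 females and 147 F2 males, and 3 females and 3 males each of MRL, of SM and of their F1. MRL females had been crossed with SM males, and the F1 progeny were intercrossed to give the F2. All animals were 13 weeks old and untreated, ate chow, lived alone for the last 3 days and were fasted for some hours before collection. MRL, SM and F1 animals are genetically uniform within a group apart from sex, while each F2 animal carries its own mixture of both genomes. The values are log2 expression levels that the authors computed with the RMA method, one per transcript and array, and they ran from 4.66 to 13.60. Levels of different transcripts depend on their probes and are not compared with each other. In whole liver, fewer cells of a type and less RNA per cell cannot be told apart.

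Some libraries lay away from the sex on their label. For each animal, the log2 levels of the 118 transcripts were averaged after the midpoint of the F2 female and F2 male means had been subtracted from each transcript, which puts a typical F2 female above 0 and a typical F2 male below. F2 females averaged 0.34 ± 0.12 (SD, n = 135; lowest -0.16, highest 0.65) and F2 males -0.34 ± 0.10 (SD, n = 147; lowest -0.56, highest 0.04). These means restate the choice of the transcripts, but the spread between animals does not. In F2, 2 of 135 females lay below the highest male. Earlier results of these data had placed 5 F2 libraries between the sexes, the females 2116, 2122, 2293 and 2295 and the male 2308. With these aside 0 of 131 females lay below the highest male, which only describes the rest, since the 5 were chosen for their place. On the mean of the 118, female 2293 stood at 0.15, above some females that were kept, such as 2324 at 0.09. Among the animals the rule did not use, the library labelled F1 male 1146 stood at 0.26, whereas the other F1 males stood at -0.34 and -0.46. In 94 of 118 transcripts it lay nearer to the F1 female mean than to the mean of the other F1 males. Results that rest on these libraries are given with and without them.

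**Figure D1:**
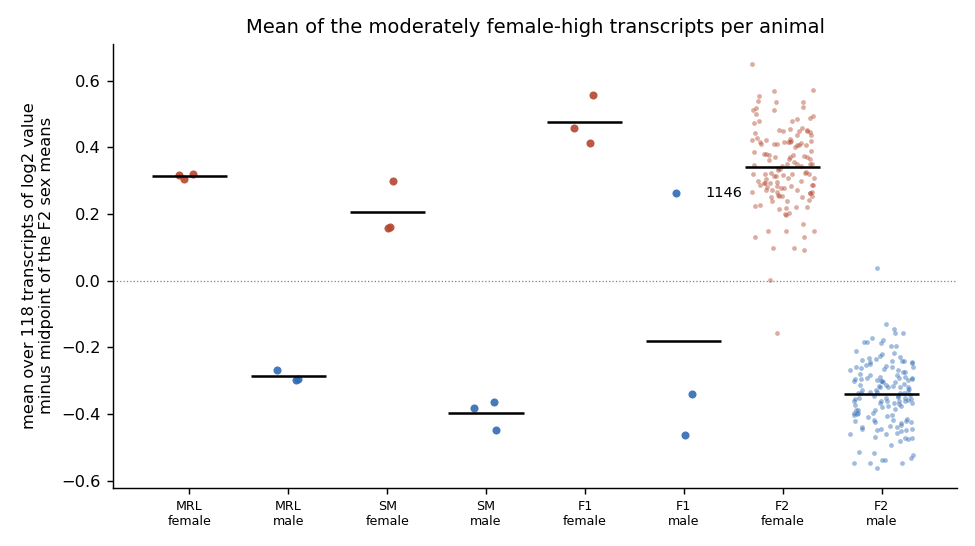
Mean of the 118 transcripts in each of 300 animals (y axis, log2 units after subtraction of the midpoint of the F2 sex means) by group (x axis), with females in red, males in blue and black bars at group means. The library labelled F1 male 1146 (0.26) lies above 0 with the females, and 2 of 135 F2 females lie below the highest F2 male.

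The averages of the MRL and SM animals fell on the side of their sex in 12 of 12 cases. MRL females averaged 0.31 ± 0.01 and MRL males -0.29 ± 0.02, SM females 0.21 ± 0.08 and SM males -0.40 ± 0.04 (SD, n = 3 in each group). F1 females averaged 0.48 ± 0.07 (SD, n = 3). The F1 females were the highest of the 6 groups, and they also had the widest spread of log2 values over an array, with a mean array SD of 1.31 against 1.24 in MRL females and 1.27 in SM females. MRL males, whose mean of the 118 was low, had nearly the same array SD, 1.30. The part of array spread in this order was not tested beyond the fits with it subtracted, given below.

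The F2 sexes overlapped in their ranges in each of the 118 transcripts, while most pairs of animals were in the same order. If 1 female and 1 male are drawn from F2, the female was the higher in a median of 98.2% of the 19845 possible pairs (quartiles over the transcripts 93.8% and 99.4%, range 67.7% to 99.97%), against a median of 47.4% over all 34406 transcripts. The share reached 99% in 46 transcripts and 95% in 85, lay from 80% to under 95% in 29, and was under 80% in 4. No transcript separated the sexes fully, since 0 of 118 had every female above every male, and with the 5 libraries aside 2 of 118 did. These 2 only describe the rest, since the 5 were chosen for their place between the sexes. No share of all transcripts is given beside these counts. At the median transcript, 52.5 of 135 females lay at or below the highest male, with a range of 1 to 134 females. With the 5 libraries aside the median was 41 females. The middles of the distributions were further apart. In 61 transcripts no female was below the male median, and in the other 57 up to 33 females were. The batches make up the F2 difference that chose the transcripts, so their values only describe how evenly it was spread. Females had the higher mean in 118 of 118 transcripts in 12 of the 13 batches with both sexes and in 117 in the other, where 1 transcript stood at -0.05. The batch medians ran from 0.59 to 0.71 log2.

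Transcripts at the 2 ends of this range had like differences of means and unlike spreads. The least overlap was in ENSMUST00000020710_at, whose log2 level ran from 10.19 over a median of 10.62 to 10.93 in F2 females and from 9.61 over 9.93 to 10.33 in F2 males. The female was higher in 99.97% of pairs, 1 female lay at or below the highest male, and the SDs were 0.12 and 0.14. The greatest overlap was in ENSMUST00000030487_at, from 7.72 over 11.05 to 12.56 in females and from 6.60 over 10.37 to 12.19 in males. Here the female was higher in 67.7% of pairs, 33 females lay below the male median and 45 males above the female median. The difference of means was 0.68 in the first and 0.76 in the second, so the wide overlap of the second goes with its SDs of 0.92 and 1.26. All the transcripts in this paragraph were chosen for their overlap, after their values were seen.

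Spread within a sex was not used by the rule. At the median of the 118, the F2 SD was 0.22 in females and 0.20 in males, about 2 times the medians of 0.11 and 0.11 over all transcripts, and the sex difference was 2.98 times the mean of the 2 SDs. The female SD was the larger in 72 of 118 (61.0%), against 35.6% of all transcripts. The ratio of female to male SD exceeded 1.5 in 23 transcripts and was under 1/1.5 in 15, against 0.52% and 0.648% of all transcripts. Thus the 118 included transcripts that varied mainly in females and others that varied mainly in males, and the median ratio was 1.08 (1.06 with the 5 libraries aside), against 0.96 over all transcripts. The highest ratio, 6.45 (8.70 with the 5 aside), was in ENSMUST00000098809_at. Its F2 females ran from 5.25 over a median of 6.13 to 9.23, while its F2 males ran from 5.20 over 5.40 to 6.45. A long upper tail in the females thus stood beside males in a narrow band. The males lay near the low end of the values, which began at 4.66, and whether a floor narrowed their spread was not tested. In the SM females this transcript read 6.05, 7.21 and 6.66, and in the F1 females 5.83, 6.46 and 5.97. In the MRL females it read 5.36, 5.46 and 5.39, the level of the males of all strains (5.31 to 5.51). The lowest ratio, 0.38, was in ENSMUST00000034026_at, where females kept to a range of 10.60 to 11.34 (median 11.09) and males spread from 9.10 to 10.95 (median 10.12). These 2 transcripts were chosen after their values were seen.

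The 18 MRL, SM and F1 animals, which the rule did not use, were tested with limma over all 34406 transcripts, with Benjamini-Hochberg adjustment and a threshold of 0.05. Averaged over the 3 backgrounds, 114 of the 118 transcripts were called higher in females and 0 higher in males (0 also at an unadjusted p under 0.05), where 4.1% of all transcripts were called higher in females. The difference was above 0 in 118 of 118, with a median of 0.60 log2 (quartiles 0.50 and 0.72) against -0.01 over all transcripts. Without the library labelled F1 male 1146, 113 were called (5.29% of all transcripts) and the median was 0.68. Many of the 118 are near copies of each other, as described below, and counted by sets of alike transcripts 74 of 77 sets held a called one. All 9 females lay above all 9 animals labelled male in 11 transcripts (0.113% of all transcripts), and above the 8 males left without that library in 55 (0.686%).

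The second-largest average difference among the called transcripts was in ENSMUST00000106371_at, and with library 1146 kept among the males it was even over the backgrounds. It read 10.57, 10.65 and 10.81 in the MRL females, 10.75, 11.12 and 10.90 in the SM females and 10.98, 10.97 and 10.72 in the F1 females. In males it read 9.64, 9.65 and 9.74 in MRL, 9.39, 9.93 and 9.90 in SM and 9.74, 9.49 and, in library 1146, 10.52 in F1. The lowest female, at 10.57, was above the highest animal labelled male, and the females of the 3 backgrounds overlapped one another. The difference was 1.05 log2 (SE 0.11; limma adjusted p = 1.03e-05), with 1.00 in MRL, 1.18 in SM and, with library 1146 kept, 0.98 in F1. The largest was in ENSMUST00000023248_at, at 1.39 (SE 0.26; limma adjusted p = 0.00215), and it was uneven. In MRL the females read 9.07, 9.90 and 9.81 and the males 6.65, 7.12 and 6.89. In SM the females read 8.39, 7.98 and 7.60 and the males 7.09, 8.67 and 7.23, and in F1 the females read 9.65, 7.58 and 7.65 and those labelled male 7.52, 7.21 and 6.76. MRL and F1 females lay above their males, while the highest of the 6 SM animals was a male. The difference of 2.71 in MRL exceeded that of 0.33 in SM by 2.38 (SE 0.64), which did not pass the test (limma adjusted p = 0.0881). In F2 its sexes also overlapped widely, with the female higher in 81.6% of pairs.

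The median difference of the 118 was close to that in F2 in both parental strains, at 0.60 log2 in MRL and 0.57 in SM. That in F1 was 0.65 with library 1146 among the males. Without that library it was 0.81 (quartiles 0.72 and 1.06), above the F2 median of 0.65. The calls were 76 in MRL (6.48% of all transcripts), 57 in SM (1.07%) and 49 in F1 (1.1%), all higher in females. Without library 1146 they were 87 in MRL (6.72%), 80 in SM (1.76%) and 104 in F1 (4.3%), and that library also enters the spread estimate that all groups share. The numbers also moved with other single animals. In SM they fell to 34 without SM female 2 and to 33 without SM male 8. In F1 they were 7, 8 and 25 without F1 females 1145, 1149 and 1150, 3 and 2 without F1 males 1151 and 1152, and 32 without MRL male 8. No share of all transcripts is given for these fits with other animals left out, so their counts show only how far the numbers moved. The differences in the counts between backgrounds are therefore not read as differences between backgrounds. The 3 females lay above the 3 males without overlap in 99 transcripts in MRL (22.3% of all transcripts), in 96 in SM (7.76%) and in 69 in F1 (11.2%), or in 115 in F1 without library 1146 (18.5%). Both MRL and SM were free of overlap in 85 (2.01%).

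No MRL or F1 female was hybridised in the same batch as a male of its own group, so no within-batch value can be given there. With batch as a random block, 77 were called in MRL (8.45% of all transcripts), 54 in SM (0.962%) and 51 in F1 (1.29%). One batch held 1 SM female and 1 SM male, and there the female was the higher in 113 of 118 transcripts with a median difference of 0.72 log2. This count rests on 1 pair of animals, and no share of all transcripts is given beside it. 

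The direction was the same in all 3 backgrounds in most of the 118, while the estimated sizes varied. Each size rests on groups of 3 animals, and the size counts here do not allow for the error of their means. The difference in size between MRL and SM was tested as an interaction, given below, and called in 5 of 118. The difference was above 0 in 113 transcripts in MRL, in 115 in SM and in 117 in F1, and in all 3 backgrounds in 111. It was called in 3 backgrounds for 29 transcripts (0.201% of all transcripts), in 2 for 30 (0.451%), in 1 for 35 (7.16%) and in 0 for 24 (92.2%). Without library 1146 these numbers were 62 (0.5%), 36 (1.09%), 13 (9.1%) and 7 (89.3%). With library 1146 left out, the female mean of each background lay above the male mean of each in 93 of 118. No share of all transcripts is given for this count or for those of differences above 0. The size of the difference reached 0.5 log2 in both MRL and SM in 45 transcripts, and it lay within 0.25 of the F2 difference in both in 54. MRL and SM differed by more than 0.5 log2 in 33. Across the 118 transcripts, the difference in MRL and that in SM had a Pearson correlation of -0.06. This describes transcripts selected within a narrow band of the F2 difference, which share the arrays and are not independent.

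**Figure D2:**
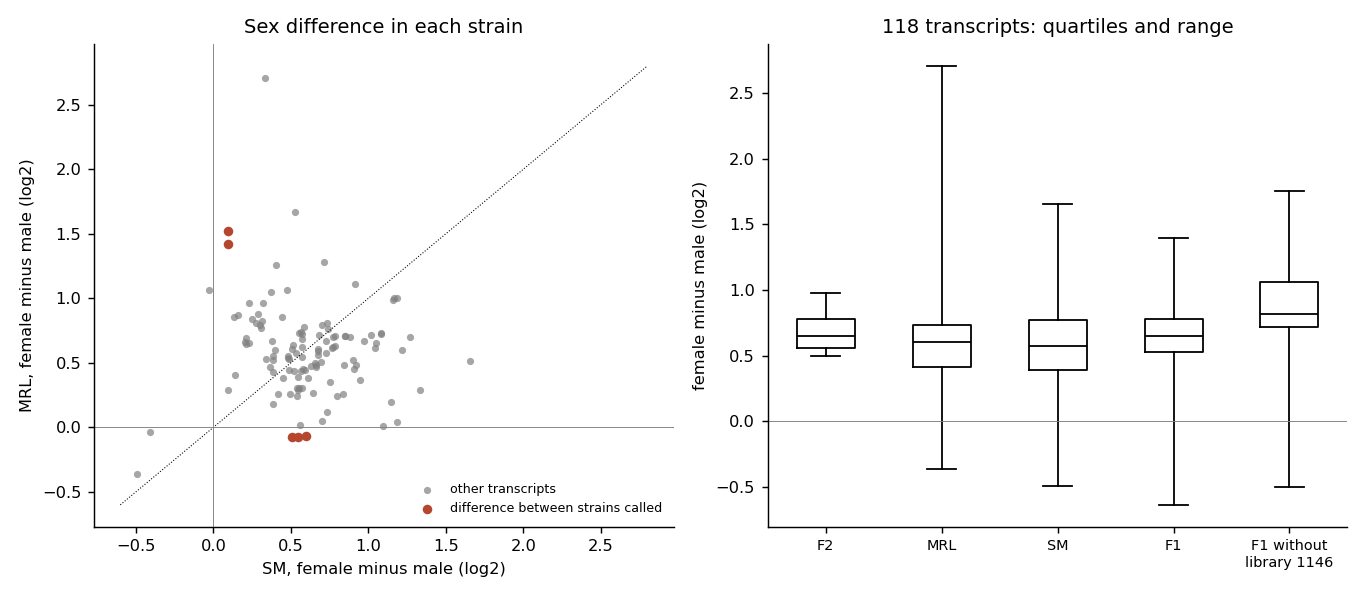
Left, female minus male difference (log2) of each of 118 transcripts in MRL (y axis) against SM (x axis), with the 5 transcripts whose difference between the strains was called in red and a dotted line of equal values. Right, boxes of quartiles with the median and whiskers to the lowest and highest of the 118 differences (log2) in F2, which chose them, and in MRL, SM and F1, where the medians were 0.60, 0.57 and 0.65 (0.81 without library 1146).

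Of the 118, 4 were not called over the 18 animals. ENSMUST00000020215_at and ENSMUST00000052528_at, which rose and fell together over the F2 animals, were the clearest exceptions and are named after their values were seen. ENSMUST00000052528_at read 7.42, 7.38 and 8.51 in the MRL females against 8.27, 8.11 and 8.00 in the MRL males, and 7.26, 6.57 and 6.93 in the SM females against 7.49, 7.17 and 7.58 in the SM males. In F1 the females read 9.43, 8.01 and 8.48 against 7.32, 7.18 and, in library 1146, 8.34 in the males. Female means were thus below male means in both parental strains (-0.36 and -0.49) and above them in F1 (1.02, or 1.39 without library 1146). Neither parental difference was called (limma adjusted p = 0.468 in MRL and 0.607 in SM). That in F1 was called only without library 1146 (limma adjusted p = 0.0205, and 0.104 with it). The F2 difference of ENSMUST00000052528_at, 0.90, had the sign of the F1 estimate and not that of the uncalled parental ones. Over the 18 animals its difference was 0.06 (SE 0.20; limma adjusted p = 0.924). ENSMUST00000020215_at gave -0.04 in MRL, -0.41 in SM and 0.75 in F1 (over the 18 animals 0.10, limma adjusted p = 0.834). Its F1 difference was also called only without library 1146 (limma adjusted p = 0.0417, and 0.157 with it). The others were ENSMUST00000029905_at at 0.56 (limma adjusted p = 0.107) and ENSMUST00000030487_at, the transcript with the widest overlap in F2, at 0.16 (limma adjusted p = 0.771). The last was lower in F1 females, at 10.17, 10.25 and 10.43, than in the F1 animals labelled male, at 11.20, 10.96 and 10.60.

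The difference between MRL and SM in the sex difference was tested itself as an interaction. It was called for 5 of 118 transcripts, 2 with the larger female excess in MRL (0.0901% of all transcripts) and 3 with the larger in SM (0.131%). The 2 belong to 1 set of alike transcripts and the 3 to another. In ENSMUST00000113586_at, MRL females read 7.46, 8.13 and 7.56 and MRL males 6.31, 6.08 and 6.21. SM females read 6.19, 6.33 and 6.26 and SM males 6.14, 6.13 and 6.23. MRL females thus stood apart, while SM females overlapped the males of both strains. The sex difference was 1.52 in MRL and 0.10 in SM, an interaction of 1.42 (SE 0.27; limma adjusted p = 0.0378). F1 females read 7.65, 7.11 and 6.74, the first within the range of the MRL females and the others between the parental females, against 6.06, 6.41 and, in library 1146, 6.65 in F1 males. Its near copy ENSMUST00000044895_at gave 1.42 in MRL and 0.09 in SM, an interaction of 1.33 (SE 0.26; limma adjusted p = 0.0421). In F2 the SD of ENSMUST00000113586_at was 0.34 in females and 0.13 in males.

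The opposite pattern was in ENSMUST00000110348_at, where MRL females read 7.08, 7.03 and 7.04 and MRL males 7.18, 7.11 and 7.06. SM females read 7.57, 7.73 and 7.61 and SM males 6.94, 7.05 and 7.14. F1 females read 7.61, 7.68 and 7.64 against 6.86, 6.89 and, in library 1146, 7.33. SM and F1 females were high, and MRL females lay among the males. The sex difference was -0.07 in MRL, 0.60 in SM and, with library 1146 kept, 0.62 in F1. The interaction was -0.66 (SE 0.13; limma adjusted p = 0.0462). ENSMUST00000110349_at gave an interaction of -0.62 (SE 0.12; limma adjusted p = 0.0421), and the third of this set, ENSMUST00000033965_at, which is named because so few were called, -0.58 (SE 0.12; limma adjusted p = 0.0481).

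These calls lie close to the threshold and rest on single animals. The count was 0 when F1 female 1149, MRL female 2 or 3, MRL male 6, 7 or 8, SM female 2 or 3, or SM male 6 or 7 was left out. It was 2 without F1 female 1150 or MRL female 1, and 3 without F1 female 1145, with no share of all transcripts given beside these. Without F1 male 1152 it was 9 (2.04% of all transcripts), and without library 1146 it was 11 (0.584% of all transcripts in either direction). The directions of the 4 named by size were kept under each alternative, with interactions of 1.21 to 1.55 for ENSMUST00000113586_at and -0.71 to -0.51 for ENSMUST00000110348_at.

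**Figure D3:**
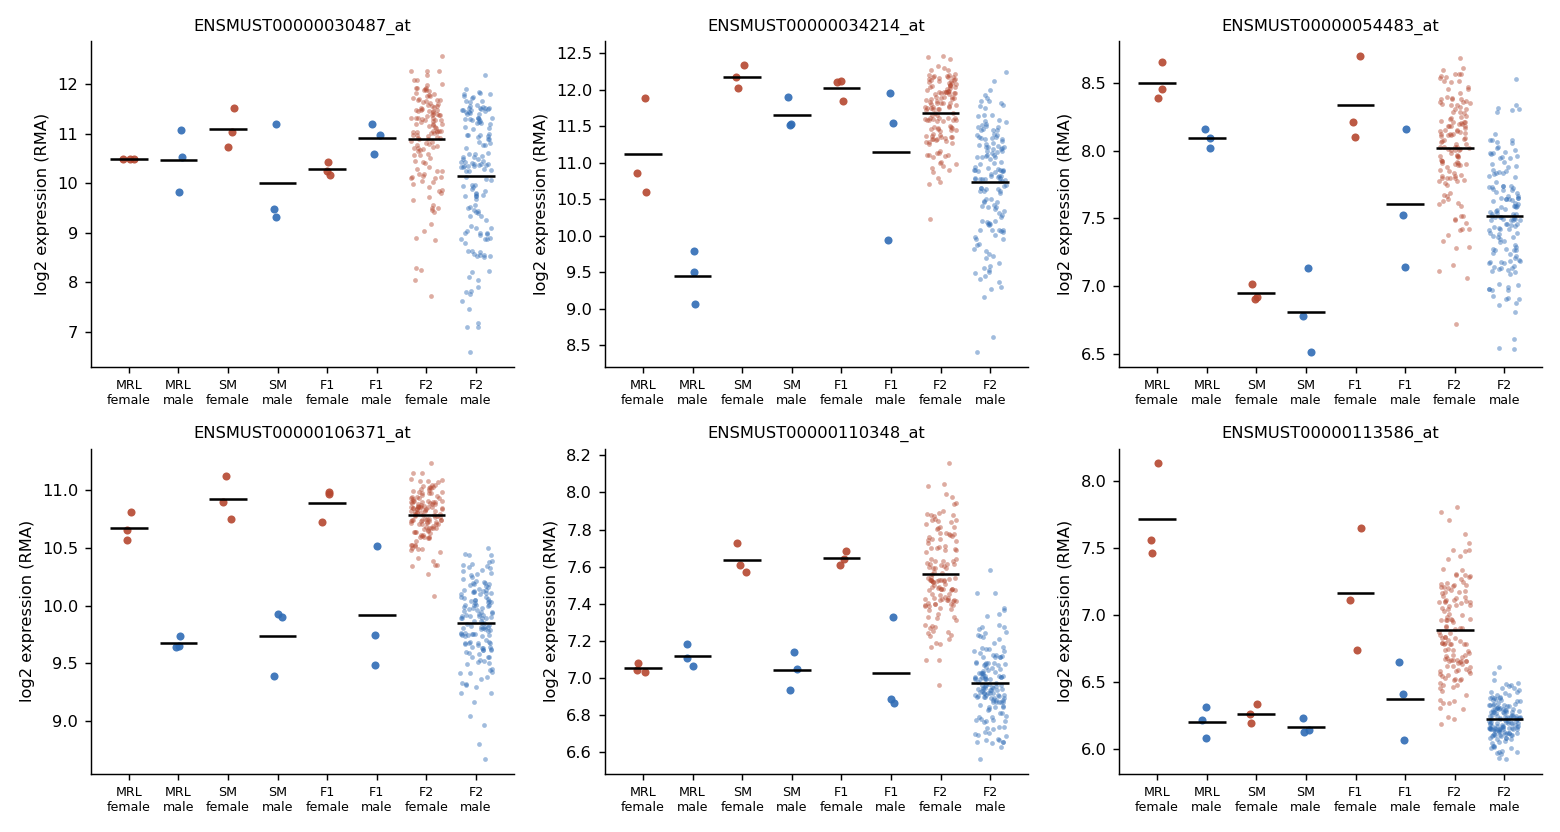
Log2 expression level (y axis) of 6 transcripts in each of 300 animals by group (x axis), females in red, males in blue, black bars at group means. In ENSMUST00000106371_at all 9 females lie above all 9 animals labelled male, of which library 1146 at 10.52 is the highest, ENSMUST00000113586_at is raised in MRL and not in SM females, ENSMUST00000110348_at in SM and F1 and not in MRL females, and ENSMUST00000030487_at overlaps widely in F2.

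The sex difference in F1 was also set against the mean of that in the parents. With all 18 animals the difference between them was called for 0 of 118 transcripts (0.323% of all transcripts in either direction; 10 of 118 at an unadjusted p under 0.05 in limma), with a median of 0.03 log2. Without library 1146 it was called for 8, all larger in F1 (1.29% of all transcripts in that direction), with a median of 0.21 and 106 of 118 above 0. The 8 belong to 5 sets of alike transcripts. They include ENSMUST00000052528_at (1.81, SE 0.39; limma adjusted p = 0.0436), chosen after its values were seen, and ENSMUST00000110348_at (0.51, SE 0.08; limma adjusted p = 0.0278). The count was 0 again when, with that library out, the slope on array spread or the batch effects estimated in F2 were also subtracted, and the medians were then 0.11 and 0.17. With library 1146 kept, it was 4 without SM female 2, all larger in F1 (3.66% of all transcripts in that direction), and 8 without SM male 6, 7 larger and 1 smaller in F1 (7.1% and 8.17%). Neither share of the 118 was above that of all transcripts. F1 levels averaged over the sexes were off the parental mean in 0 of 118 transcripts (0.0378% of all transcripts). The median was 0.17 with 109 above 0, and 0.08 with 83 above 0 without library 1146, which is high in most of the 118. The count was 9 without F1 male 1152 (0.404% of all transcripts) and 1 without SM female 2 (0.0349%). At an unadjusted p under 0.05 in limma, 52 of 118 were off the parental mean with all animals, all above it, and 28 without library 1146. The unadjusted counts in this paragraph have no share of all transcripts beside them, so they are not read as particular to the 118.

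The level of many of the same transcripts also differed between the strains. Averaged over the sexes, 33 of 118 were called higher in MRL (6.08% of all transcripts) and 13 higher in SM (4.25%). The size of the strain difference had a median of 0.25 log2 against 0.05 over all transcripts. It exceeded 0.5 in 27 transcripts and exceeded the transcript's own F2 sex difference in 16. In 26 transcripts the strains were free of overlap in females and also in males (6.67% of all transcripts). Counted by sets of alike transcripts, 31 of 77 held a called one. In females alone 34 were called (8.02% of all transcripts), or 20, 17 and 22 without MRL female 1, MRL female 2 and SM female 1. In males alone 18 were called (6.47%), or 37 without library 1146 and 11 without MRL male 6 or MRL male 7. For these fits with an animal left out no share of all transcripts is given, so their counts show only how far the numbers moved. Both sexes called 9 (2.44% of all transcripts), all 9 in the same direction, and the strain differences in females and in males had a Pearson correlation of 0.51 across the 118, which share arrays and near copies.

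In ENSMUST00000054483_at, MRL females read 8.65, 8.39 and 8.46 and MRL males 8.16, 8.10 and 8.02, while SM females read 6.92, 7.02 and 6.90 and SM males 6.78, 6.52 and 7.13. Every MRL animal lay above every SM animal, and the strain difference of 1.42 (SE 0.14; limma adjusted p = 1.84e-06) exceeded the sex differences of 0.41 in MRL and 0.14 in SM. In F2 its sexes overlapped, with females from 6.72 over a median of 8.05 to 8.69 and males from 6.53 over 7.52 to 8.53. ENSMUST00000031583_at was also higher in MRL, by 1.04 (SE 0.15; limma adjusted p = 8.38e-05). The largest difference towards SM was in ENSMUST00000034214_at, at -1.63 (SE 0.26; limma adjusted p = 0.000368). Levels in SM were 12.03, 12.34 and 12.17 in females and 11.91, 11.54 and 11.51 in males. In MRL they were 10.86, 10.60 and 11.89 in females and 9.50, 9.06 and 9.80 in males. Within each sex the SM animals were the higher, and the SM males lay above 2 of the 3 MRL females. F1 females at 12.11, 12.12 and 11.85 lay near the SM females, while F1 males at 11.55, 9.95 and, in library 1146, 11.95 were spread out. ENSMUST00000034215_at, of the same alike set, differed by -1.24 (SE 0.22; limma adjusted p = 0.000818). Mean levels crossed the sexes in some transcripts. The MRL male mean was above the SM female mean in 9, and the SM male mean was above the MRL female mean in 13.

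Among the 135 F2 females, whose differences from each other the rule did not use, the 118 transcripts varied together only weakly. The 6903 pairs of transcripts had a median Pearson correlation of 0.22 (quartiles 0.09 and 0.36; median Spearman correlation 0.20), while all 591869215 pairs of the 34406 transcripts had a median of 0.00 (quartiles -0.16 and 0.16). The correlation was above 0 in 87.6% of pairs against 49.98% of all pairs, and at least 0.5 in 7.94% against 2.46%. With the 5 libraries aside the median was 0.18. Over the batches with both sexes, the median within a batch ran from 0.02 to 0.51. The first principal component carried 26.7% of the standardised variance and the second 10.0%. In the 147 F2 males the median was 0.14, with 78.3% of pairs above 0 and a first component of 21.9%. Male pairs at 0.5 or more were 3.98%, close to the 3.23% of all pairs. A pair's correlation in females and in males correlated at 0.52 across the pairs.

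**Figure D4:**
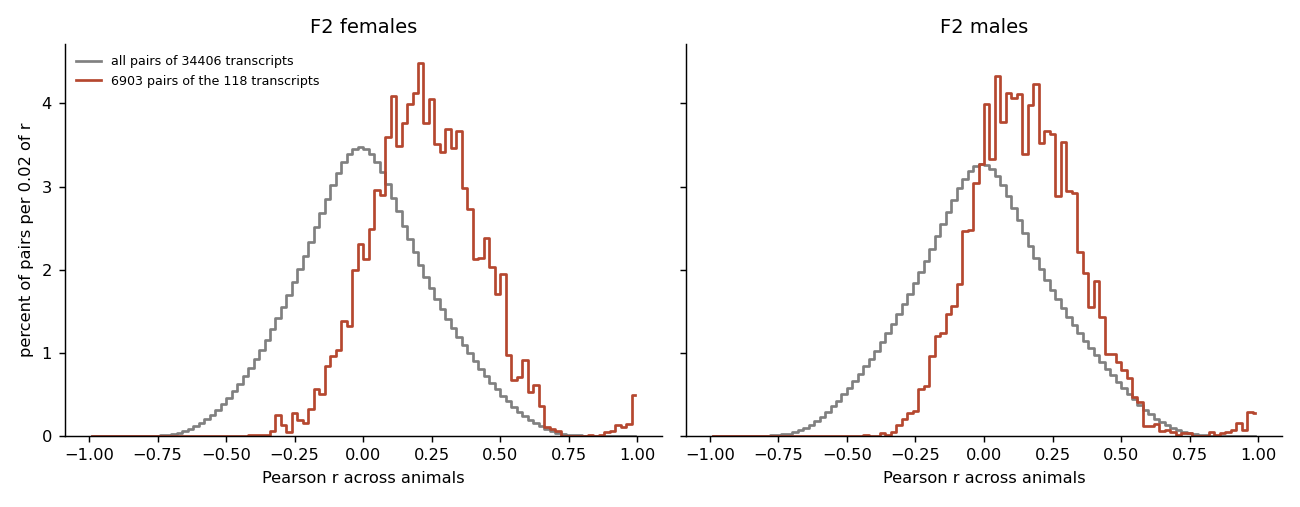
Share of transcript pairs (y axis, percent per 0.02 of r) by Pearson correlation across animals (x axis) in F2 females (left) and F2 males (right), for the 6903 pairs of the 118 transcripts in red and for all pairs of 34406 in grey. The red distributions lie to the right of the grey ones, with medians of 0.22 and 0.14, and have a small peak close to 1 from near copies.

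A small number of pairs were near copies. In F2 females 64 pairs reached a correlation of 0.9, and joining such pairs gave 77 sets, of which 23 held at least 2 transcripts and 54 held 1. The 23 sets held 64 of the 118 transcripts, and the largest held 5. Within sets the median correlation was 0.98 in females and 0.97 in males, where the sets had not been chosen. Rows of 1 gene can share probes, which the files do not show. With 1 transcript kept per set the median correlation was 0.19 in females and 0.14 in males. Transcripts of 1 gene that correlated below 0.9 would stay in separate sets, so the part of copies in the rest was not tested.

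Transcripts differed in how closely they followed the others. The correlation of a transcript with the mean of the other 117 over F2 females had a median of 0.45 and a range of -0.23 to 0.79, and it reached 0.5 in 48 transcripts. The highest were ENSMUST00000075935_at (Pearson 0.79, Spearman 0.74) and ENSMUST00000106371_at (0.78 and 0.75), which belong to the same alike set and so are partly correlated with each other's copies. ENSMUST00000075935_at ran from 10.35 over a median of 11.03 to 11.44 in F2 females and from 8.89 over 10.11 to 10.73 in F2 males. Its female minus male difference was 0.99 in MRL, 1.16 in SM and 0.93 in F1, so the transcript that followed the others most closely also had even differences over the backgrounds. The lowest was ENSMUST00000030487_at (-0.23 and -0.24), the only one under 0, which in F2 males correlated at 0.54. This transcript, chosen after its values were seen, thus went weakly against the others in females and with them in males.

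The animal means of the 118 followed those of the more strongly female-high transcripts. In F2, 66 transcripts were at least 1 log2 higher in females, and their mean was taken without any of the 3 that the rule left out. Over F2 females this mean and that of the 118 had a Pearson correlation of 0.88 and a Spearman correlation of 0.90 (n = 135; 0.87 with the 5 libraries aside). Over F2 males the Pearson correlation was 0.83 (n = 147; 0.88 with library 2308 aside). With the 109 transcripts that were 0.5 to under 1 log2 higher in F2 males, the Pearson correlation was -0.49 over F2 females (Spearman -0.43; -0.38 with the 5 aside) and -0.11 over F2 males (-0.03 with library 2308 aside). An animal with high levels of the 118 thus tended to have high levels of the other female-high transcripts, and, in females, low levels of the male-high ones. These means share the arrays. Near copies were joined only within the 118, and whether the other groups hold copies of the 118 was not tested. The mean of the 118 correlated with the SD of the whole array at 0.46 over females and 0.50 over males. With batch effects and the slope on array SD subtracted and the 5 libraries aside, the correlations with the female-high mean were 0.88 and 0.87, and those with the male-high mean were -0.69 over females and -0.54 over males.

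**Figure D5:**
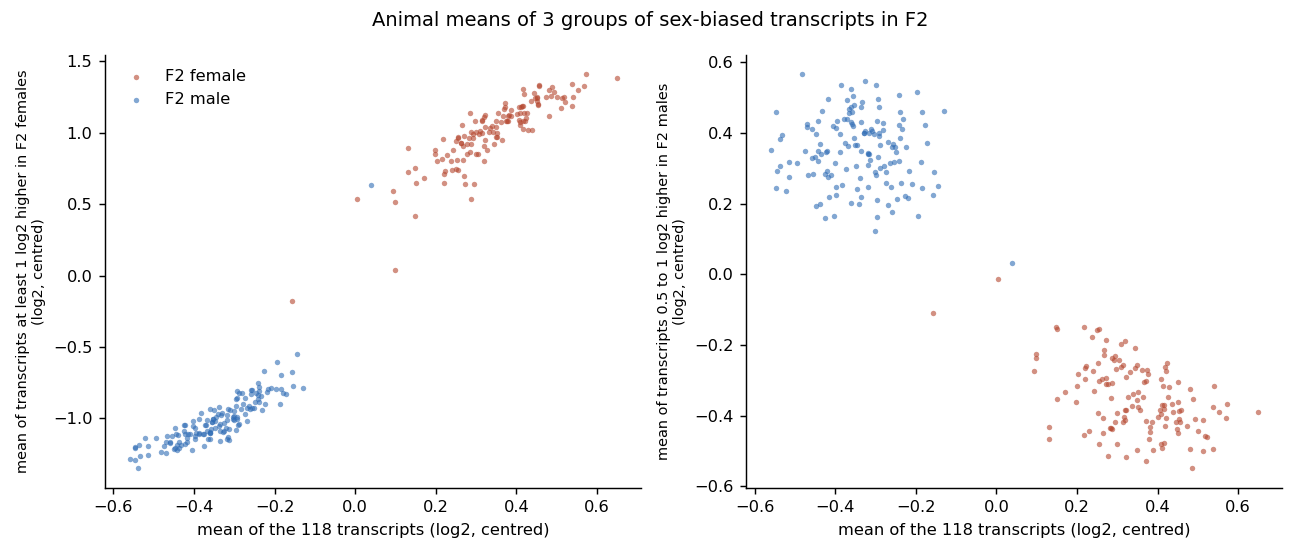
Mean of the 118 transcripts per F2 animal (x axis, log2, centred on the midpoint of the sexes) against the means of 2 other groups, females in red, males in blue. Left, the transcripts at least 1 log2 higher in females, without any that the rule left out. Right, the 109 transcripts 0.5 to under 1 log2 higher in males. Within each sex the left panel rises (Pearson 0.88 over females and 0.83 over males), and the right panel falls over females (-0.49) and is nearly flat over males (-0.11).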

How the data were processed

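The deposited values are log2 expression levels per Ensembl transcript and array, which the authors made by RMA (affy, R 2.11), per the submitters' processing notes. RMA corrects background, quantile-normalizes probe intensities and sums up each transcript's probes. Neither Ensembl release nor build is given in the sources used here. All 34406 transcripts on 300 arrays were kept. Groups (strain or generation, and sex) and the 14 hybridisation batches came from the labels. Arrays have no read depth, and the number of animals limits the precision.

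The 118 transcripts, the lists and the libraries set aside were chosen with earlier results of these data known. Every tested contrast came from 1 limma 3.58.1 fit (R 4.3.3; lmFit and eBayes), in which the 18 parental and F1 animals had 6 group means. P-values were adjusted over all transcripts by Benjamini-Hochberg with a threshold of 0.05. The fit was tested on simulated data with known changes. F2 overlap, spread and correlations are descriptions (Python 3.11.15, numpy 2.4.6, scipy 1.17.1). Alike transcripts were joined at a correlation of at least 0.9 in F2 females, a choice made after seeing the data.

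By the naming rule, at most 2 transcripts are named in each direction of a contrast, those with the largest called difference, and the 2 most correlated with the others. Others are said to be chosen after their values were seen. Gene lists and cell type markers were not applied, because 0 of 34406 identifiers matched the gene table used (GRCm38.p6), and for the same reason no sequence is shown. Alternatives were array centring or quantile normalization, only transcripts above the median level, limma's trend and robust options, batch as a random block or subtracted as estimated in F2, subtraction of the slope on array SD, a fit of only the groups compared, a replicate block, and each animal left out.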

Additional observations from a re-analysis of the deposited data

Results flagged for a closer look

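The female minus male difference differed between MRL and SM, by limma's test of the interaction itself, in 5 of 118 transcripts, 2 positive (0.0901% of all transcripts) and 3 negative (0.131%). They form 2 sets of near copies, and the count was 0 when any 1 of 10 of the 18 animals was left out. The interaction, MRL minus SM, was 1.42 in ENSMUST00000113586_at and 1.33 in ENSMUST00000044895_at, where the female excess was the larger in MRL, and -0.66 in ENSMUST00000110348_at and -0.62 in ENSMUST00000110349_at, where it was the larger in SM. The difference between F1 and its parents passed the same kind of test in 8 transcripts of 5 sets without the library labelled F1 male 1146 (1.29% of all transcripts in that direction), and in 0 with it.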

How the results depend on the processing

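Of 293 alternative values of the counts and medians, 241 stayed within 1.5 times the count, or within the spread between batches of the median. Counts, shares of pairs and SD ratios cannot change sign, so reversals are not counted for them. The count called female-high over the 18 animals was 74 by sets of alike transcripts, and 107 to 115 as each animal was left out. Leaving out each animal gave 55 to 87 in MRL, 33 to 80 in SM and 2 to 104 in F1. In F1 the count of 49 became 23 after quantile normalization, 25 with the array spread slope subtracted and 2 with only the F1 groups fitted. With library 1146 out it was 95 with that slope and 102 with the F2 batch effects also subtracted, both added after seeing the data. The interaction count of 5 became 2 for transcripts above the median level, with batch as a random block or with the spread slope subtracted, 3 with arrays centred or with trend and robust options, 1 with F2 batch effects subtracted and 12 with only the groups compared (each animal left out, 0 to 11). For F1 against its parents the count of 0 became 4 with the random block, at the 3.76% of all transcripts called in that direction, where the estimated correlation within batches was -0.08 (0 to 8 with animals left out). F1 off the parental mean gave 1 with trend and robust options (0 to 9). The strain counts were 37 to 57 over both sexes, 17 to 40 in females and 11 to 37 in males with animals left out, and 44 in males with only the groups compared. MRL and SM animals share replicate numbers, and with the number as a replicate block the counts were 62, 50 and, in males, 41. Deviations of same-numbered animals correlated at -0.08 to 0.22, so the numbers are not read as pairs. The rule itself gave 114 transcripts with batch in the fit, 122 without the 5 libraries, 116 with medians and 113 with arrays centred. With 3 animals a group, counts near the threshold carry little weight.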
